A study of Mus musculus with 18 samples.

Results

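The small leucine-rich proteoglycans are secreted proteins of the extracellular matrix, and 8 of them were taken by gene name from the 55450 genes of the count table: Dcn (decorin), Bgn (biglycan), Lum (lumican), Fmod (fibromodulin), Ogn (osteoglycin), Aspn (asporin), Prelp and Omd (osteomodulin). The rule itself uses only gene names and no measured value, although the family was picked with earlier results of these data known. RNA had been sequenced from mouse embryonic fibroblasts (MEF), cultured cells obtained from a cell bank, in 18 libraries that form 6 groups of 3. Cells were transfected with an empty pcDNA3 vector, with Col1a1-miR-29b, in which the promoter of the collagen gene Col1a1 drives the microRNA miR-29b, or with CMV-miR-29b, in which the always active cytomegalovirus promoter drives it. After 6 h, each was given TGF-β at 20 ng/ml for 24 h or was left without it, so the groups are empty vector, Col1a1-miR-29b and CMV-miR-29b, each without and with TGF-β. All groups were transiently transfected in culture, and no selection of the cells that took up the plasmid is described, so a library holds RNA of transfected and untransfected cells alike.

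The proteins share a core of leucine-rich repeats that binds collagen fibrils and sets their spacing and width. Dcn, Bgn and Aspn form one class, in which Dcn and Bgn carry chondroitin or dermatan sulfate chains. Lum, Fmod, Prelp and Omd form another, several of which carry keratan sulfate chains, and Ogn belongs to a further class. Dcn and Bgn also bind TGF-β itself, and fibroblasts are a main source of both.

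The members lie in 4 places of the mouse genome (build GRCm38). Dcn (ENSMUSG00000019929, chr10:97479609-97518143) and Lum (ENSMUSG00000036446, chr10:97565128-97572703) are neighbours on the plus strand, 47.0 kb apart with 0 annotated genes between them. Aspn (ENSMUSG00000021388, chr13:49544443-49567565), Omd (ENSMUSG00000048368, chr13:49582462-49592822) and Ogn (ENSMUSG00000021390, chr13:49608046-49624501) follow each other on the plus strand with gaps of 14.9 and 15.2 kb. All 3 sit inside Cenpp, a centromere protein gene on the opposite strand (chr13:49464023-49652785). Prelp (ENSMUSG00000041577, chr1:133910304-133921414) is on the minus strand and Fmod (ENSMUSG00000041559, chr1:134037254-134048277) on the plus strand, 115.8 kb apart with 2 genes between them. Bgn (ENSMUSG00000031375, chrX:73483602-73495933) lies alone on the plus strand.

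The vectors carry miR-29b, a microRNA that pairs through its seed with sites in the 3′ untranslated regions (UTRs) of collagen and other matrix mRNAs. Its mature form is shown with its seed, bases 2 to 8, in capitals, followed by the 1 window of a member's 3′ UTR that holds the seed's complement TGGTGCT. The microRNA is from RefSeq (GRCm38.p6) and is written in RNA letters, and the UTR window is from the genome and annotation of build GRCm38.
mmu-miR-29b-3p: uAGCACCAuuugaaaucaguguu
Prelp, minus strand of chr1:133910808-133910814, with 11 bases on either side: tgaaagcaaccTGGTGCTacagcctggac

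The Prelp match starts 1792 bases after the stop codon and is followed by A, which makes it an 8-base match to the seed end of miR-29b. The other 7 members held 0 matches in 3′ UTRs of 435 (Omd) to 1652 (Fmod) bases. Among the 11 fibrillar collagen genes, 9 held 15 matches in all, and among 21663 genes with a 3′ UTR 12.7% held at least 1. A match is a run of letters and was not tested as a site of binding.

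RefSeq promoter windows of 300 bases around the start of the gene (GRCm38.p6) were found for 6 of the 8 members, all but Dcn and Lum. They were searched on both strands for CAGAC, which Smad factors of the TGF-β pathway bind, for TGANTCA, which AP-1 binds, and for TATAAA, the TATA box. The windows of Bgn and Ogn are shown because their mRNAs carried the calls described later, and that of Fmod because it held 2 copies of CAGAC. Capitals mark every match.
Bgn, plus strand, chrX:73483351-73483650: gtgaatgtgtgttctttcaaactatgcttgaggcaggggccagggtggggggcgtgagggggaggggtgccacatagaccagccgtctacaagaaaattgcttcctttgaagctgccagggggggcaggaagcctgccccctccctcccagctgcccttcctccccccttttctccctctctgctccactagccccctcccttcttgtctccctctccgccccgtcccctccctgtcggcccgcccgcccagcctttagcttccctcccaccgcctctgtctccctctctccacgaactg
Ogn, plus strand, chr13:49607765-49608064: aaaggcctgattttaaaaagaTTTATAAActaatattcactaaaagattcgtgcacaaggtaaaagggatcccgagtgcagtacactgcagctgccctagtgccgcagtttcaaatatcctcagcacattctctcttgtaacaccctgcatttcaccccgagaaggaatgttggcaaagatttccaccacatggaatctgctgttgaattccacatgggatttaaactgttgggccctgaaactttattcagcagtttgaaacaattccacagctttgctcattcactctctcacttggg
Fmod, plus strand, chr1:134037004-134037303: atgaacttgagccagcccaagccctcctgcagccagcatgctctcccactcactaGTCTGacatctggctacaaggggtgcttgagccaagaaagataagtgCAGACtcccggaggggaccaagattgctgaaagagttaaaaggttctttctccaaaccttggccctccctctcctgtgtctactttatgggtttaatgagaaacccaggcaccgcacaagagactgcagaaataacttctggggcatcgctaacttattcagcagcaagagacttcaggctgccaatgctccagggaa

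The Bgn window held none of the 3 motifs, at 63.7% G or C. The Ogn window held 2 overlapping TATAAA matches, 1 on each strand, both more than 200 bases before the start. CAGAC was found in Fmod (2 matches) and Prelp (3 matches), TATAAA in Aspn and Ogn (2 matches each), and TGANTCA in 0 of the 6. Among 32851 promoter windows of the same length, 49.6% held CAGAC, 7.81% held TGANTCA and 13.6% held TATAAA.

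Library totals were 65898017 to 80332633 counts, with a median of 74155860. Replicate letters are c, d and e. In both Col1a1-miR-29b groups the column of the third library carries a letter that no sample label has, and it is called the unlettered library. The vectors differed in counts assigned to the mouse gene Mir29b-1. It had 0 counts in all 6 empty vector libraries, 0 to 1 in Col1a1-miR-29b and 2 to 6 in Col1a1-miR-29b with TGF-β. Counts were 110 to 309 in CMV-miR-29b and 203 to 293 in CMV-miR-29b with TGF-β. Mir29b-2 had 0 to 1 counts in all libraries. According to the paper the plasmids carry the human miR-29b-1 sequence. Whether the reads assigned to Mir29b-1 come from plasmid RNA was not tested. These counts come from libraries of polyadenylated RNA and do not measure the mature microRNA. Of the TGF-β targets examined as a check, Ccn2 and Acta2 rose in all vectors: Ccn2, a matricellular growth factor gene, rose with log2 fold changes of 1.74, 1.71 and 1.92 (SE 0.10 each), and Acta2, smooth muscle actin, with 1.64, 1.52 and 2.09 (empty vector, Col1a1-miR-29b and CMV-miR-29b). Smad7, an inhibitory Smad, rose by 1.05 with the empty vector and by 1.44 with CMV-miR-29b, and its value of 1.04 with Col1a1-miR-29b did not pass (adjusted p = 0.0631). Skil, a repressor of Smad signalling, did not pass in any vector (1.01, 0.96 and 1.03, adjusted p = 0.111, 0.164 and 0.119), and Tgfbi, at 0 to 17 counts, was not tested.

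Fibroblast genes were present, with Vim at 32733 to 55911 counts and Pdgfra at 451 to 955, but Thy1, often used to mark fibroblasts, stood at 0 to 8 counts. Of the genes that mark tissues rich in members, Hapln1 and Matn1 (cartilage), Ibsp and Dmp1 (bone) and Tnmd (tendon) were at 0 to 4 counts, and Acan and Comp (cartilage) at 15 or fewer. Other markers of the same tissues were well measured, with Sox9 at 571 to 1851 counts and Col2a1 at 62 to 293 (cartilage), Runx2 at 1032 to 2639 (bone), and Scx at 550 to 1753, Mkx at 323 to 608 and Egr1 at 6362 to 9110 (tendon). Of the epithelial markers Epcam had 4 counts or fewer, Krt18 0 to 12, Krt8 0 to 27 and Cdh1 0 to 40.

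Bgn made up nearly all of the mRNA of the members chosen here. Genes on the list of relatives and cluster neighbours were not counted in that share. Of these, Tsku had 2524 to 4672 raw counts and Podnl1 819 to 1317, above Ogn (130 to 522) and Dcn (146 to 501). All others on that list had 174 raw counts or fewer. On the length-corrected FPKM scale (fragments scaled for the length of the gene's exons and library depth, in the 16 libraries with such a column that could be matched to a sample), Bgn reached 72.4 to 158, Ogn 0.610 to 2.29 and Dcn 0.312 to 0.988. Omd (0.0188 to 0.279), Prelp (0.0319 to 0.182), Fmod (0 to 0.233) and Aspn (0 to 0.0891) had overlapping ranges. Bgn accounted for 95.5 to 97.1% of the summed FPKM of the members without TGF-β and for 98.8 to 99.2% with it. It ranked 464 to 574 among all 55450 genes without TGF-β and 219 to 275 with it.

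On this scale Ogn stood above Dcn in each of the 16 libraries, with an FPKM ratio of 1.70 to 4.43 without TGF-β and of 1.45 to 2.92 with it. The order rests on the length scaling, as the exons of Dcn cover 5838 bases and those of Ogn 2566. Raw counts overlapped, at 146 to 501 for Dcn and 130 to 522 for Ogn. In untreated empty vector cells Dcn was higher in replicates d (416 against 384) and e (501 against 465), and Ogn in c (471 against 440). The ratio of Bgn to Dcn was 80.1 to 157 in the 8 libraries without TGF-β and 259 to 486 in the 8 with it, and the ranges did not overlap. For Bgn to Ogn it was 32.4 to 60.7 and 143 to 236. How often ratios of other genes lie apart in this way was not counted.

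Lum, a keratan sulfate proteoglycan best known from the cornea, had 0 counts in all 18 libraries. A floor of 3 counts puts the highest level that could have been missed at 0.0373 to 0.0455 CPM (counts scaled to a common depth), depending on the library, for counting error only. Its relatives Epyc and Kera, which lie in the same gene cluster on chromosome 10, also had 0 counts. For Dcn, the other end of that cluster, the mean level was 3.70 CPM.

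**Figure D1:**
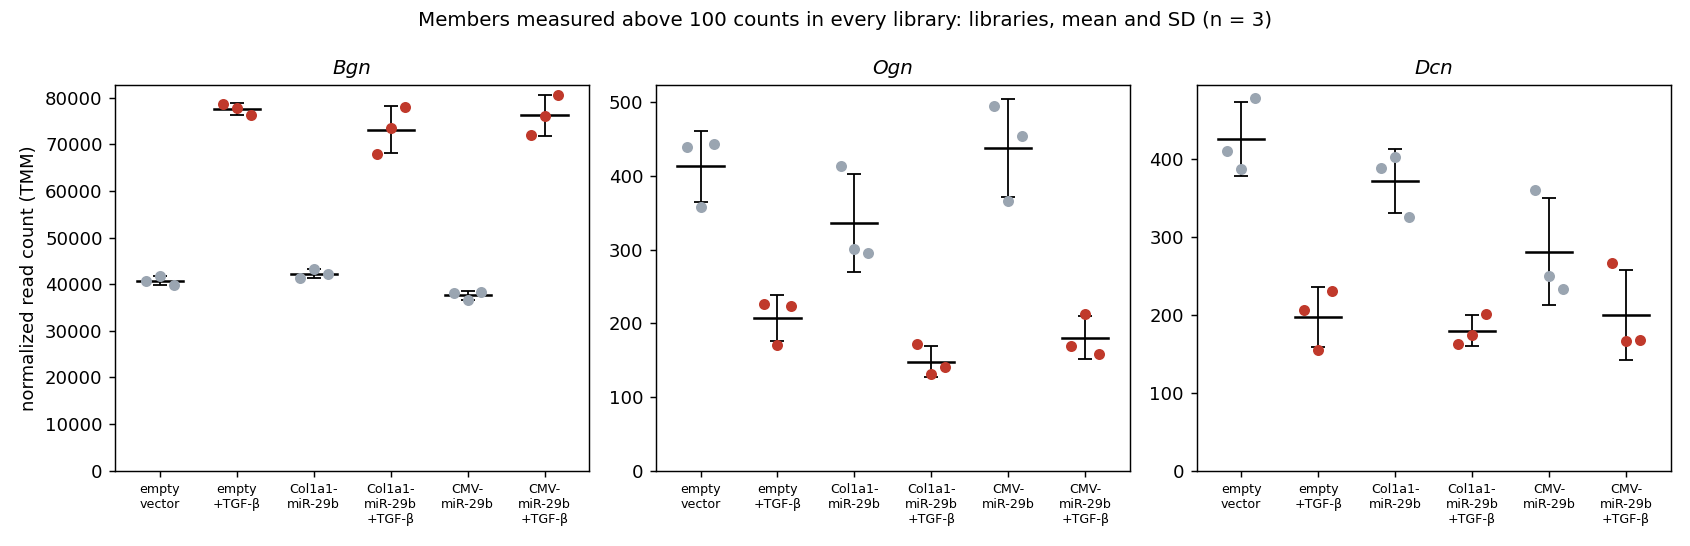
Normalized counts (y axes) of Bgn, Ogn and Dcn in the 6 groups (x axes), with 1 point per library and a bar for the mean. Bgn stands at 36572 to 43266 without TGF-β and at 67899 to 80540 with it, while Ogn and Dcn are lower with TGF-β in each vector.

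The 3 members with the most counts, Bgn, Ogn and Dcn, did not move in 1 direction with TGF-β. In empty vector cells 3 of 7 tested members passed the threshold (adjusted p under 0.05, edgeR's quasi-likelihood test, Benjamini-Hochberg adjustment over 21161 genes), where 5.88% of all tested genes did. Bgn rose 1.90-fold, and Dcn and Ogn fell to 0.463 and 0.501 of their level without TGF-β. With Col1a1-miR-29b the same 3 members passed (background 4.32%), and with CMV-miR-29b Bgn rose and Ogn fell (2 of 7, background 4.95%). By direction, 1 member rose in each vector, against 3.88, 3.0 and 3.08% of all genes, and 2, 2 and 1 fell, against 2.01, 1.32 and 1.87%. With total counts in place of the TMM scaling, 672 of 1265 called genes were higher in empty vector cells, against 820 of 1245. The median log2 fold change of the 7 members was -0.63, -0.12 and -0.32 in the 3 vectors, against 0.0023, -0.0056 and -0.0025 over all tested genes. Each member median is the value of 1 scarce member, Prelp, Aspn and Omd in this order (SE 0.75, 1.16 and 0.63). No direction of the members as a set can be read from them. In such bulk samples, a change in the number of cells that express a gene and a change in RNA per cell cannot be told apart.

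Bgn binds collagen and TGF-β, and once shed it also signals through Toll-like receptors. Its normalized counts, raw counts scaled to a common library size, were 40652, 41752 and 39894 in empty vector cells and 78723, 77784 and 76285 with TGF-β (replicates c, d and e). The Col1a1-miR-29b libraries had 41305, 43266 and 42291, and 67899, 73564 and 77989 once TGF-β was given (c, d and unlettered). All treated libraries were above all untreated ones, in these vectors and across them. How many of all genes separate in this way was not counted, here and for Dcn and Ogn below.

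For CMV-miR-29b the Bgn values were 38067, 36572 and 38234 in untreated cells and 71917, 76096 and 80540 under TGF-β, again with a wide gap between the groups. The log2 fold change was 0.93 (SE 0.05, adjusted p = 8.53e-09) in empty vector cells, 0.79 (SE 0.05, adjusted p = 5.77e-08) with Col1a1-miR-29b and 1.02 (SE 0.05, adjusted p = 2.97e-09) with CMV-miR-29b. The rise was thus 1.73-fold to 2.02-fold, and the spread among the 3 treated libraries was wider with either miR-29b vector (SD 5058 and 4312) than with the empty vector (SD 1230).

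Dcn, a collagen-binding proteoglycan that sequesters TGF-β, was low in these cells. Its normalized counts were 410.1, 387.2 and 477.9 in empty vector cells and 206.2, 154.4 and 230.2 with TGF-β (c, d and e). The Col1a1-miR-29b libraries had 388.8, 402.0 and 325.2, and 162.5, 174.5 and 201.3 under TGF-β. In both vectors each treated library lay below each untreated one. The log2 fold change was -1.11 (SE 0.22, adjusted p = 0.00446) in empty vector cells and -1.05 (SE 0.22, adjusted p = 0.00881) with Col1a1-miR-29b.

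With CMV-miR-29b the Dcn groups overlapped. The untreated libraries had 359.9, 249.98 and 233.3 normalized counts and the treated ones 266.3, 166.5 and 167.1 (c, d and e), so that treated replicate c stood above untreated replicates d and e. The log2 fold change was -0.49 (SE 0.21, 95% interval -0.95 to -0.03), which did not pass (unadjusted p = 0.0371, adjusted p = 0.276). The test of the difference between this response and that of empty vector cells gave 0.62 (95% interval -0.02 to 1.26, adjusted p = 0.922), so the responses were not shown to differ.

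Ogn, also called mimecan, is a small member found in bone and in many connective tissues. Its normalized counts were 439.0, 357.4 and 443.6 in empty vector cells and 226.1, 170.8 and 224.0 with TGF-β (c, d and e). They were 413.4, 300.3 and 296.2 with Col1a1-miR-29b and 171.5, 131.9 and 140.9 when TGF-β was added (c, d and unlettered). The CMV-miR-29b libraries had 495.7, 365.7 and 453.9, and 169.7, 213.3 and 157.9 under TGF-β. No treated library of any vector reached the lowest untreated one.

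The log2 fold change of Ogn was -0.998 (SE 0.18, adjusted p = 0.00289) in empty vector cells, -1.18 (SE 0.19, adjusted p = 0.00102) with Col1a1-miR-29b and -1.28 (SE 0.19, adjusted p = 0.000428) with CMV-miR-29b. Cenpp, the gene that spans Ogn on the opposite strand, shares 0 exon bases with it. It had 748 to 1131 counts and log2 fold changes of 0.03, 0.05 and 0.09 (SE 0.09 each, adjusted p = 0.934, 0.901 and 0.756).

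**Figure D2:**
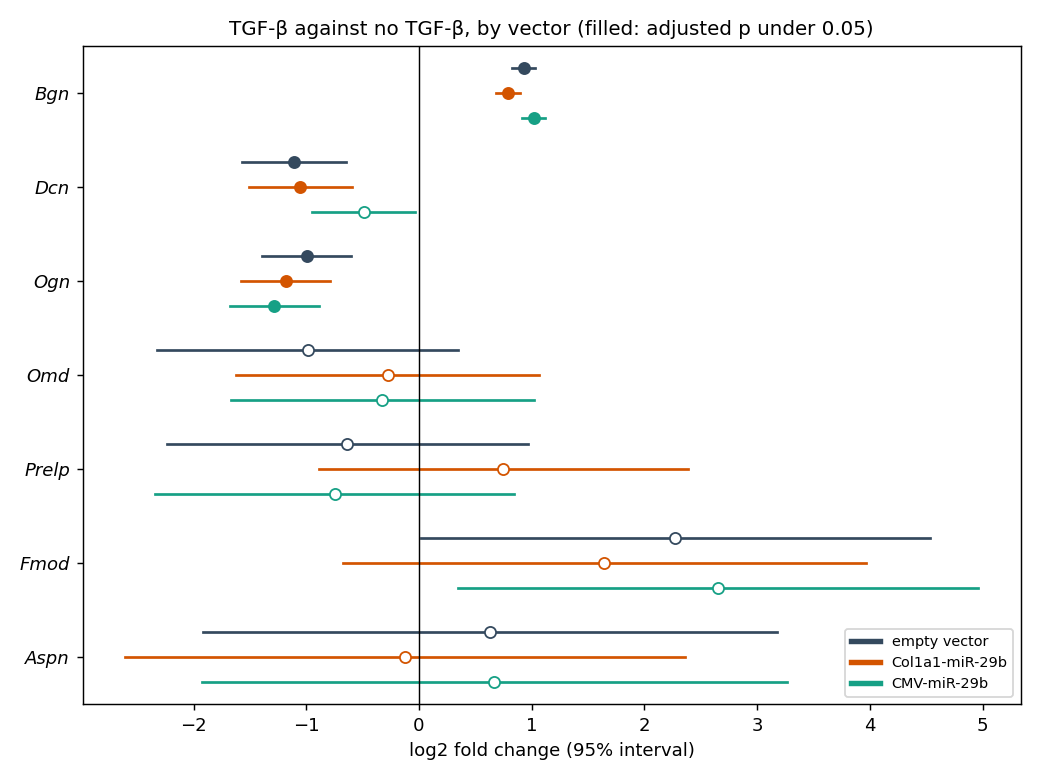
Log2 fold change with TGF-β (x axis) of the 7 tested members (rows) in each vector, with bars for the 95% interval and filled points where the adjusted p is under 0.05. Bgn lies at 0.79 to 1.02 and Ogn at -1.28 to -0.998 with filled points in all vectors, Dcn has an open point with CMV-miR-29b, and the scarce members have wide intervals.

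Fmod, which binds fibrillar collagen and regulates its crosslinking, had few counts: 4, 16 and 4 in empty vector cells and 64, 12 and 31 with TGF-β (c, d and e). The Col1a1-miR-29b libraries had 0, 8 and 8, and 27, 8 and 15 under TGF-β, and the CMV-miR-29b libraries 0, 12 and 7, and 15, 37 and 59 under TGF-β. Only with CMV-miR-29b did the treated libraries all exceed the untreated ones. How often 3 libraries lie apart from 3 others among all genes was not counted, here and for the members below. The log2 fold changes were 2.27 (95% interval 0.02 to 4.53), 1.64 (-0.67 to 3.96) and 2.65 (0.35 to 4.96), and none passed the threshold (adjusted p = 0.290, 0.587 and 0.230).

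Omd, a keratan sulfate proteoglycan of mineralised tissue, had 46, 33 and 56 counts in empty vector cells and 8, 29 and 27 with TGF-β, groups that did not overlap. With Col1a1-miR-29b it had 24, 27 and 27 without and 21, 12 and 30 with TGF-β, and with CMV-miR-29b 45, 4 and 37 without and 15, 22 and 25 with TGF-β, so both of these pairs of groups overlapped. The log2 fold changes of -0.99, -0.28 and -0.32 did not pass (SE 0.63 each, adjusted p = 0.490, 0.934 and 0.897), also where the groups did not overlap.

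Prelp, which links basement membranes to the matrix, had 42, 29 and 39 counts in empty vector cells and 19, 25 and 22 with TGF-β, which did not overlap. Its values were 16, 30 and 0 with Col1a1-miR-29b, 25, 16 and 34 when TGF-β was added, 59, 44 and 25 with CMV-miR-29b and 10, 33 and 25 when TGF-β was added. The single 0 is in the unlettered Col1a1-miR-29b library, and the groups of both miR-29b vectors overlapped. The log2 fold changes were -0.63, 0.75 and -0.75 (SE 0.75, 0.77 and 0.75), with adjusted p of 0.780, 0.778 and 0.753. None passed, also where the groups did not overlap. Without the unlettered libraries the middle value, of Col1a1-miR-29b, was -0.15.

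Aspn, a relative of Dcn that inhibits TGF-β in cartilage, was at the limit of detection with 0 to 16 counts per library. Its log2 fold changes with TGF-β were 0.63, -0.12 and 0.67, each with an SE above 1. No direction can be read from these.

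**Figure D3:**
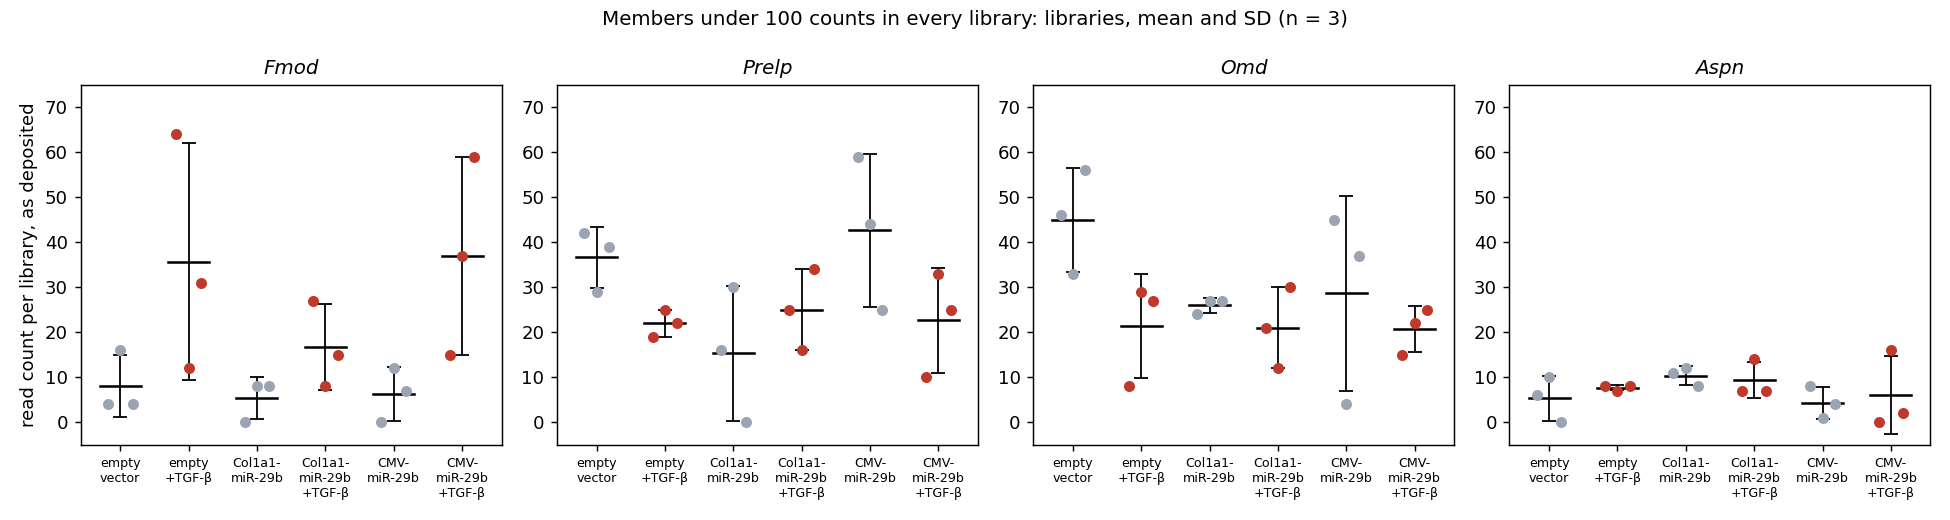
Raw counts (y axes) of Fmod, Prelp, Omd and Aspn in the 6 groups (x axes), with 1 point per library and a bar for the mean. No library exceeds 64 counts, and replicates of 1 group spread from 0 to 30 (Prelp, Col1a1-miR-29b) or from 4 to 45 (Omd, CMV-miR-29b).

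Neither miR-29b vector changed a member past the threshold, with or without TGF-β. Each was compared with empty vector cells of the same treatment, and the comparisons of both vectors share those controls. Without TGF-β, 0 of 7 members passed with Col1a1-miR-29b (background 6.27%, with 2.57% higher and 3.70% lower) and 0 of 7 with CMV-miR-29b (background 0.00473%, which is 1 gene). With TGF-β the counts were 0 of 7 (background 12.9%, with 5.31% higher and 7.63% lower) and 0 of 7 (background 0.00945%, which is 2 genes). At an unadjusted p under 0.05 there were 0, 2, 1 and 0 members in this order. The same unadjusted limit was met by 4560, 1156, 5518 and 2531 of all 21161 tested genes. DESeq2 also called 0 members in each comparison.

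The intervals bound what could have been missed. For Bgn the log2 difference from empty vector cells without TGF-β was 0.05 with Col1a1-miR-29b (95% interval -0.05 to 0.16) and -0.12 with CMV-miR-29b (-0.22 to -0.01, unadjusted p = 0.0294, adjusted p = 0.877). With TGF-β it was -0.09 (-0.19 to 0.02) and -0.03 (-0.13 to 0.08). A difference of Bgn beyond 0.22 on the log2 scale in either direction thus lay outside all of these intervals.

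Dcn differed from empty vector cells by -0.19 on the log2 scale with Col1a1-miR-29b (95% interval -0.64 to 0.26) and by -0.60 with CMV-miR-29b, both without TGF-β (-1.05 to -0.14, unadjusted p = 0.0133, adjusted p = 0.819). With TGF-β the differences were -0.13 (-0.59 to 0.32) and 0.02 (-0.44 to 0.48). All 3 untreated CMV-miR-29b libraries had fewer normalized counts of Dcn than all 3 untreated empty vector libraries. This difference did not pass, and the share of all genes that separate in this way was not counted.

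Ogn differed from empty vector cells by -0.30 (-0.68 to 0.09) with Col1a1-miR-29b and by 0.09 (-0.30 to 0.47) with CMV-miR-29b without TGF-β. With TGF-β the log2 differences were -0.48 (-0.88 to -0.09, unadjusted p = 0.0200, adjusted p = 0.106) and -0.20 (-0.59 to 0.19). Treated Col1a1-miR-29b libraries d and unlettered lay below all treated empty vector libraries, and library c, at 171.5, just above the lowest of them at 170.8.

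Prelp, the 1 member with the seed match printed earlier, differed by -1.16 (-2.79 to 0.47) and 0.25 (-1.31 to 1.82) without TGF-β and by 0.22 (-1.39 to 1.83) and 0.14 (-1.48 to 1.76) with it, for Col1a1-miR-29b and CMV-miR-29b. At 0 to 59 counts per library, the first of these intervals holds both 0 and a fall of 2 on the log2 scale. The differences of Fmod, Omd and Aspn ranged from -1.10 (Fmod, Col1a1-miR-29b with TGF-β) to 1.05 (Aspn, Col1a1-miR-29b without TGF-β), and each interval included 0.

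**Figure D4:**
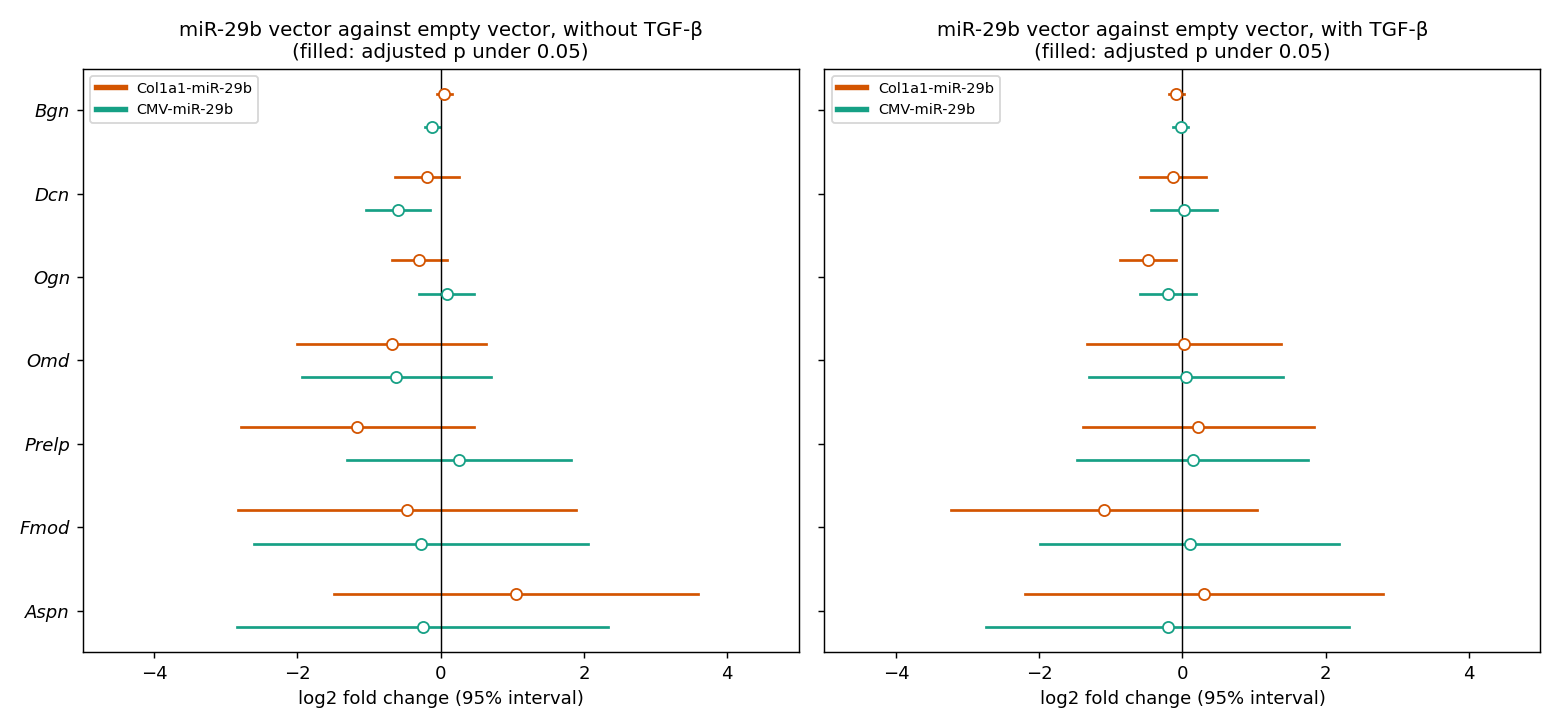
Log2 fold change of each miR-29b vector against the empty vector (x axes) for the 7 tested members (rows), without and with TGF-β, with bars for the 95% interval. All points are open, Bgn lies within 0.12 of 0 in all 4 comparisons, and the intervals of the 4 scarce members are wider than those of Bgn, Dcn and Ogn.

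The response to TGF-β was also compared between vectors. The difference of the Bgn response from that of empty vector cells was -0.14 with Col1a1-miR-29b (95% interval -0.28 to 0.01, unadjusted p = 0.0604) and 0.09 with CMV-miR-29b (-0.06 to 0.23). For Ogn it was -0.19 (-0.74 to 0.36) and -0.28 (-0.83 to 0.27), and for Dcn 0.06 (-0.59 to 0.70) with Col1a1-miR-29b. Of the members 0 of 7 passed in either test, as did 0 of 21161 genes (background 0%), with 961 and 1129 genes at an unadjusted p under 0.05 and 24 and 21 genes called by DESeq2.

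Enzymes that build the sugar chains of Bgn and Dcn were measured as a list of 23 genes, of which 17 could be tested. With TGF-β 4 rose in empty vector cells and 3 in the cells of each miR-29b vector, and 0 fell. Chst11, which sulfates chondroitin at the 4 position, rose by 1.0, 0.84 and 0.87 on the log2 scale (SE 0.10 each), and Chst3, which sulfates it at the 6 position, by 0.66, 0.53 and 0.80. Chsy1, a chondroitin synthase, rose by 0.49, 0.27 and 0.40, and B4galt7, which adds a galactose to the linker, by 0.42 in empty vector cells.

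Of the keratan sulfate enzymes, 11 of 12 were tested and B4galt1, a galactosyltransferase, rose in each vector (0.54, 0.52 and 0.51, SE 0.04 each), with 0 others past the threshold. Of 12 proteases known to cut members, 10 were tested. Bmp1, which removes the propeptide of Bgn, rose by 0.71, 0.56 and 0.70, and Mmp14, a membrane-bound collagenase, by 0.64, 0.63 and 0.58. Adamts5, an aggrecanase, fell by 1.43, 1.06 and 1.22 on the log2 scale, and Adamts1 by 0.33 in empty vector cells, so that 2 rose in each vector and 2, 1 and 1 fell. The call of 2 falling proteases in empty vector cells became 1 without replicate c of the untreated group or without replicate e of the treated group.

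Of 10 cell surface receptors that bind members, 9 were tested and 4 rose in each vector with 0 falling: Lrp1 (0.79, 0.65 and 0.65), an endocytic receptor for Dcn, Egfr (0.68, 0.70 and 0.65), Tlr2 (0.53, 0.59 and 0.67) and Itgb1 (0.29, 0.30 and 0.36). Of 11 fibrillar collagens, 10 were tested and 8 rose in each vector with 0 falling. Col11a1 led with 1.97, 1.93 and 2.05 (SE 0.16 each), and Col1a2 rose by 1.48, 1.16 and 1.22. The other named ones were Col5a3 (1.26) in empty vector cells, Col2a1 (1.17 and 1.39) in the cells of the miR-29b vectors, and at the lower end Col5a2 (0.78, 0.65 and 0.66), Col5a1 (0.95, 0.81 and 0.84) and Col3a1 (0.97, 0.69 and 0.75). Of 10 relatives and cluster neighbours of the members, 8 were tested and 0 passed in any comparison between 2 groups.

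**Figure D5:**
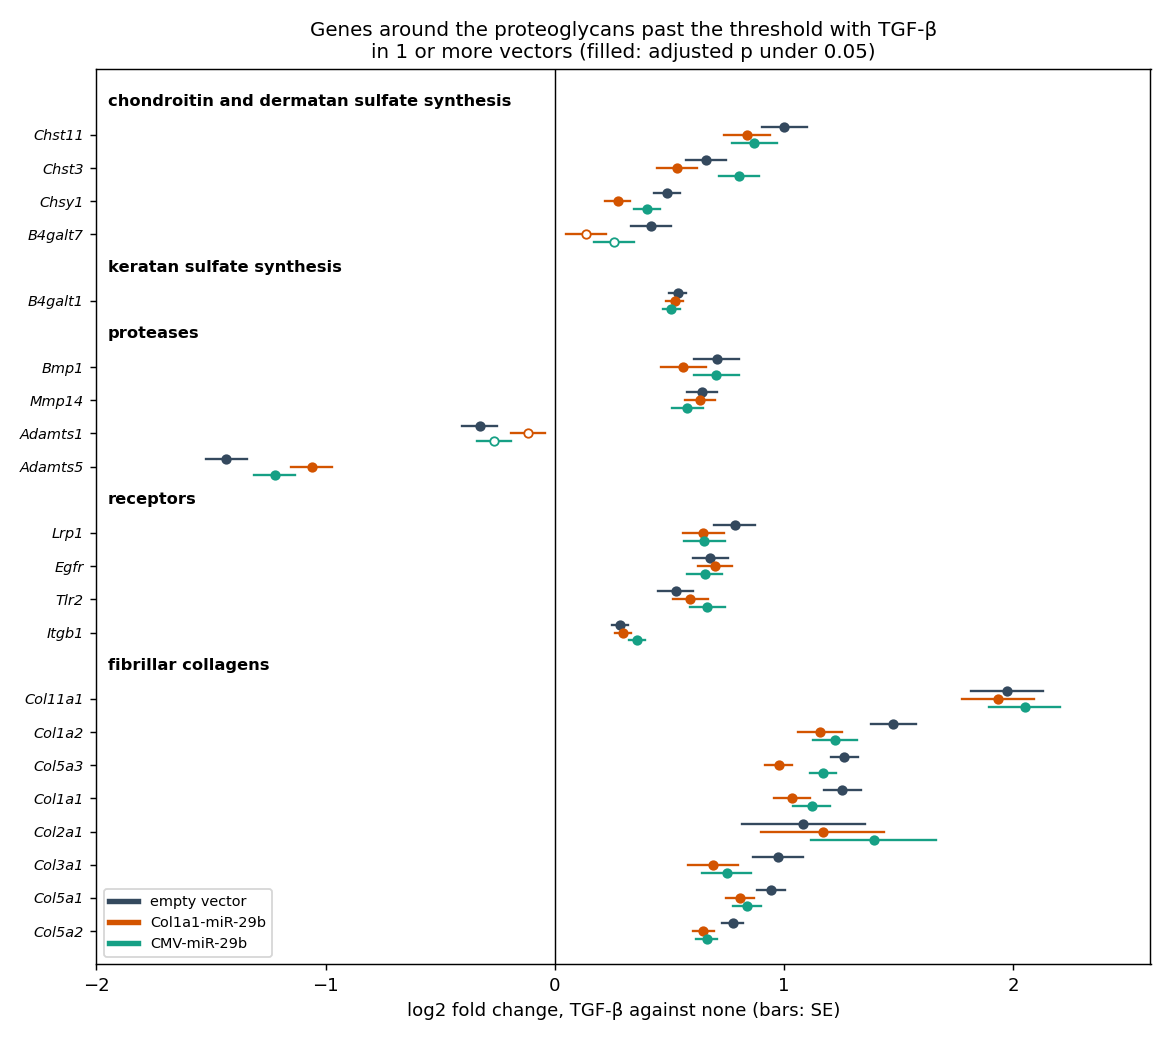
Log2 fold change with TGF-β (x axis, bars for the SE) in each vector, for the genes of 5 lists around the proteoglycans (rows) that passed the threshold in at least 1 vector. The collagens Col11a1 to Col5a2 and the receptors lie to the right of 0 in all vectors, and Adamts5 lies at -1.43 to -1.06.

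Cells with Col1a1-miR-29b differed from empty vector cells in some of these lists while the members did not pass. With TGF-β, 7 of 10 collagens were lower, among them Col3a1 (-0.87), Col1a2 (-0.63) and Col11a1 (-0.59), with Col5a2 (-0.28), Col5a1 (-0.37) and Col1a1 (-0.46) least so, and without TGF-β 4 were lower: Col3a1 (-0.59), Col11a1 (-0.55), Col5a3 (-0.29) and Col5a1 (-0.23). Leaving out 1 library gave 2 to 3 of the latter, with 2 without replicate c of the empty vector group or without any 1 of the Col1a1-miR-29b libraries. With TGF-β, 5 chain enzymes were lower, Ust (-2.15), Chst11 (-0.42), Dse (-0.36), Chst3 (-0.32) and Chsy1 (-0.18), and 2 were higher, Chst14 (0.43) and B3gat3 (0.18). Ust was scarce, at 8 to 87 counts over all libraries. Igf1r (-0.57), Egfr (-0.35), Lrp1 (-0.34) and Tlr4 (-0.32) were lower among the receptors. Leaving out replicate e of the treated empty vector group left 1 lower and 0 higher chain enzymes and 1 lower receptor. Without replicate c of that group, 2 lower and 0 higher chain enzymes passed, and leaving out any 1 treated Col1a1-miR-29b library gave 2 to 3 lower and 0 to 1 higher ones. The lower receptors were 2 without treated Col1a1-miR-29b library c or unlettered.

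Fut8, a fucosyltransferase of the keratan sulfate list, was lower with Col1a1-miR-29b without and with TGF-β (-0.43 and -0.46), as was Mmp14 (-0.33 and -0.34), and Egfr was lower without TGF-β (-0.37). Adamts4 was higher (0.45 without and 0.40 with TGF-β), and with TGF-β so were Adamts5 (0.39) and Adamts1 (0.32). Of these 3 proteases, 1 passed with TGF-β without treated empty vector replicate c or e or without the treated unlettered library. The call of Adamts4 without TGF-β was lost when any 1 of the 6 libraries compared was left out. With CMV-miR-29b, 0 genes of these lists passed in either comparison by edgeR, and DESeq2 called 6 lower collagens with TGF-β, as did edgeR without treated empty vector replicate d.

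Other marker lists moved with the same comparisons, and their part in the values of the members was not tested. With TGF-β the summed CPM of 6 cartilage markers went from 11.4 to 12.1 up to 25.3 to 28.9 in empty vector cells, from 10.9 to 12.1 up to 23.3 to 25.3 with Col1a1-miR-29b and from 9.0 to 9.76 up to 22.5 to 25.8 with CMV-miR-29b. Of the 4 tested, Sox9 (1.26, 1.02 and 1.39) and Col2a1 rose in each vector. The summed CPM of 4 tendon markers went from 110 to 129 up to 141 to 152, from 99.7 to 109 up to 132 to 156 and from 102 to 104 up to 125 to 142, where Scx rose by 1.21, 1.47 and 1.39 and Mkx by 0.64 and 0.63 (empty vector and CMV-miR-29b).

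The fibroblast list moved too, with 3, 4 and 3 of its 6 tested genes higher under TGF-β in the 3 vectors. Against empty vector cells, Col1a1-miR-29b cells had 5 of these 6 lower with TGF-β, Col1a2 (-0.63), Ddr2 (-0.55), Col1a1 (-0.46), Pdgfrb (-0.44) and Vim (-0.41), and Ddr2 lower without it (-0.41), with 0 higher in either. Interferon response genes, of which 8 were measured, were higher with Col1a1-miR-29b in 4 cases both without and with TGF-β, among them Mx1 (1.01 and 1.0), Ifit1 (0.74 and 0.75), Irf7 (0.41 and 0.48) and Isg15 (0.40 and 0.38). Their summed CPM was 1187 to 1212 in empty vector cells and 1550 to 1722 with Col1a1-miR-29b. With TGF-β 6 of the 8 fell with CMV-miR-29b, led by Rsad2 (-0.87), and 1 fell with the empty vector (Irf7, -0.28). Among bone markers Runx2 rose under TGF-β by 0.63 with the empty vector and by 0.53 with Col1a1-miR-29b, and against empty vector cells it was lower in Col1a1-miR-29b cells both without and with TGF-β (-0.47 and -0.57). The endothelial gene Cdh5 rose in empty vector cells (1.74, adjusted p = 0.00277), at 25 to 152 counts over all libraries. The adipocyte gene Fabp4 fell under TGF-β in the cells of both miR-29b vectors (-1.79 and -1.53) and had a value of -1.37 with the empty vector, which did not pass (adjusted p = 0.0605). In the epithelial, blood and skeletal muscle lists 0 genes passed in any comparison between 2 groups.

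Across the 18 libraries, the genes whose scaled log2 CPM followed Bgn, Ogn and Dcn most closely were described by Pearson's r among 13911 genes at a mean CPM of at least 1. The libraries share the TGF-β contrast, which alone gives a high r to any gene that moves with it. For Bgn they were Ccn4 (0.990), Stk17b (0.990) and Spsb1 (0.988). Those of Ogn were Lcn2 (0.968), Cp (0.967) and Krt19 (0.964). For Dcn the values were lower, with Col8a1 (0.927), Styk1 (0.907) and Ly6c1 (0.905).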

How the data were processed

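Total RNA of 18 MEF libraries (6 groups of 3) had been made into stranded poly(A) libraries and sequenced in pairs. As the submitters' notes and the methods state, the authors trimmed reads with cutadapt, checked them with FastQC, aligned them with HISAT2 and assembled them with StringTie. The labels name build mm9, while coordinates were checked against GRCm38, where 52506 of 55450 genes matched. The counting step and its strand setting are not given in the sources used here, so reads of overlapping antisense genes could not be told apart. The deposited raw counts per gene were used for all tests. FPKM values, normalized by the authors, served for levels between genes and as an alternative, and 2 value columns matched to no sample were not used. The authors' own comparison columns (fold changes, p-values) were not used.

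The count table was analysed with edgeR 4.0.16 in R 4.3.3: TMM scaling, filterByExpr (21161 genes; 7 of 8 members, Lum left out), 1 fit with 6 group means, the quasi-likelihood test, Benjamini-Hochberg adjustment over all genes and a threshold of 0.05. The SE was the log2 fold change divided by the square root of F, and intervals cover 95%. The steps were tested on simulated data. Scripts read samples from the labels, and the 3 libraries of a group were treated as replicates; p-values measure the spread between these samples, which may be technical. Replicates differed by more than sampling noise. Among counts of 1 to 40, multiples of 4 made up 33.8 to 36.7%, where chance gives 25%. Alternatives used DESeq2 1.42.0, limma 3.58.1 on log2 FPKM with a pseudocount of 1 or of 0.1, other scalings and filters, counts divided by 4, the replicate letter as a block and each library left out. Named genes were the members, the 3 highest and 3 lowest past the threshold in each list, and the 3 most alike in pattern. An item of the TGF-β control list is not reported here. Members and lists were chosen with earlier results of these data known. Floors of 3 counts cover counting error only.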

Additional observations from a re-analysis of the deposited data

How the results depend on the processing

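In all alternatives that were run (DESeq2, other scalings and filters, limma on FPKM, counts divided by 4, other sets of samples, the block) and with each library left out, the number of members past the threshold was the same, 3, 3 and 2 for TGF-β and 0 in the 6 other comparisons. The calls of Bgn, Dcn and Ogn kept their direction and side of the threshold, so the block changed no call of a member. Without the unlettered libraries, 453 genes were called for TGF-β with Col1a1-miR-29b and 397 and 1659 for Col1a1-miR-29b against empty vector without and with TGF-β. Deviations from group means had a mean r of 0.006 over 36 same-letter pairs (-0.003 over 70 others). Of 16 libraries, 8 lay closest to their own letter. A small r cannot exclude pairing. With this block, genes called in empty vector cells with TGF-β went from 1245 to 932, with Col1a1-miR-29b from 914 to 394 and with CMV-miR-29b from 1047 to 790, and for Col1a1-miR-29b against empty vector from 1327 to 161 without and 2738 to 1152 with TGF-β. Single libraries left out moved some of the counts without the block by more than 1.5 times: the empty vector count was 725 without treated empty vector replicate e, Col1a1-miR-29b against empty vector was 468 or 567 without untreated empty vector replicate c or d and 823, 482 or 640 without untreated Col1a1-miR-29b library c, d or unlettered, and with TGF-β it was 1666 or 1291 without treated empty vector replicate c or e and 1498 or 1810 without treated Col1a1-miR-29b library c or unlettered. By only the groups compared the counts were 618 (empty vector) and 527 (CMV-miR-29b) for TGF-β, and 782 and 1072 for Col1a1-miR-29b and 10 and 7 for CMV-miR-29b against empty vector (1327, 2738, 1 and 2 with all groups in the fit). DESeq2 called 2398 genes for Col1a1-miR-29b without TGF-β, and 42 and 288 for CMV-miR-29b against empty vector without and with TGF-β. Without treated empty vector replicate d, 160 genes passed in the last of these. Limma with a pseudocount of 1 called 545 genes for TGF-β with Col1a1-miR-29b and 582 for Col1a1-miR-29b against empty vector without TGF-β. Limma with a pseudocount of 0.1 called 423 genes for TGF-β with Col1a1-miR-29b, and 76 and 982 for Col1a1-miR-29b against empty vector without and with TGF-β. With total counts, 672 of 1265 calls in empty vector cells were higher (TMM 820 of 1245), and for Col1a1-miR-29b against empty vector 679 of 1322 (TMM 543 of 1327) without and 1469 of 2792 (TMM 1123 of 2738) with TGF-β. A filter of at least 10 counts in every library left members Bgn, Dcn and Ogn. Only the groups compared gave 53 of 63 member values, with some of Fmod missing, and counts divided by 4 gave 45.

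No sign change concerned a value past the threshold, and the cause was not tested. With the replicate letter as a block the log2 values that changed sign were Prelp -0.11 (from 0.75) for the TGF-β response with Col1a1-miR-29b; Aspn 0.26 (from -0.25) for CMV-miR-29b against empty vector; Aspn -0.15 (from 0.30), Prelp -0.13 (from 0.22) and Omd -0.21 (from 0.026) for Col1a1-miR-29b against empty vector under TGF-β; Fmod -0.19 (from 0.10) for CMV-miR-29b against empty vector under TGF-β; Dcn -0.11 (from 0.058) for the Col1a1-miR-29b difference in response; Aspn -1.01 (from 0.042) for the CMV-miR-29b difference in response. Without the unlettered libraries the log2 values that changed sign were Prelp -0.15 (from 0.75) for the TGF-β response with Col1a1-miR-29b; Prelp -0.10 (from 0.22) and Omd -0.36 (from 0.026) for Col1a1-miR-29b against empty vector under TGF-β; Dcn -0.12 (from 0.058) for the Col1a1-miR-29b difference in response. By limma with a pseudocount of 1 the log2 values that changed sign were Prelp -0.012 (from 0.75) for the TGF-β response with Col1a1-miR-29b; Prelp -0.0044 (from 0.22) and Omd -0.027 (from 0.026) for Col1a1-miR-29b against empty vector under TGF-β; Bgn 0.0042 (from -0.027) for CMV-miR-29b against empty vector under TGF-β; Dcn -0.015 (from 0.058) for the Col1a1-miR-29b difference in response. By limma with a pseudocount of 0.1 the log2 values that changed sign were Prelp -0.070 (from 0.75) for the TGF-β response with Col1a1-miR-29b; Prelp -0.033 (from 0.22) and Omd -0.13 (from 0.026) for Col1a1-miR-29b against empty vector under TGF-β; Bgn 0.0042 (from -0.027) for CMV-miR-29b against empty vector under TGF-β; Dcn -0.074 (from 0.058) for the Col1a1-miR-29b difference in response; Aspn -0.031 (from 0.042) for the CMV-miR-29b difference in response. With total counts in place of TMM the log2 values that changed sign were Bgn 0.0050 (from -0.027) for CMV-miR-29b against empty vector under TGF-β.

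Ranges over the libraries left out in turn, for log2 values that changed sign, were as follows. The TGF-β response with Col1a1-miR-29b gave Aspn -0.52 to 0.052 and Omd -0.66 to 0.0088. The TGF-β response with CMV-miR-29b gave Aspn -1.91 to 1.42 and Omd -0.84 to 0.14. Col1a1-miR-29b against empty vector gave Fmod -0.91 to 0.49. CMV-miR-29b against empty vector gave Aspn -1.01 to 0.54, Ogn -0.028 to 0.20, Fmod -1.12 to 0.68 and Prelp -0.052 to 0.52. Col1a1-miR-29b against empty vector under TGF-β gave Aspn -0.10 to 0.47, Prelp -0.10 to 0.46 and Omd -0.36 to 0.30. CMV-miR-29b against empty vector under TGF-β gave Dcn -0.23 to 0.15, Aspn -2.78 to 0.38, Bgn -0.070 to 0.022, Fmod -0.36 to 0.86, Prelp -0.30 to 0.52 and Omd -0.34 to 0.28. The Col1a1-miR-29b difference in response gave Dcn -0.080 to 0.20 and Fmod -1.58 to 0.14. The CMV-miR-29b difference in response gave Aspn -2.52 to 0.80, Fmod -0.57 to 1.22 and Prelp -0.55 to 0.27.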
